A study of Ovis aries with 15 samples.

Results

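The kidney of untreated sheep was described from the 5 libraries of the control (CON) group, out of 15 libraries in the series. Each library held RNA of a kidney portion from a male Dorper and Small-tailed Han cross sheep aged 4 months that had eaten a basal total mixed ration with no aflatoxin and no curcumin for 21 d. Of the 6 sheep of the group, 5 were sequenced, and the zone of the kidney that was sequenced is not given in the sources used here, although the study names the renal cortex for its histology. The remaining libraries, 5 of sheep fed aflatoxin B1 (AFB1) and 5 of sheep fed AFB1 with curcumin (AFB1_CUR), were used only to look at the same genes elsewhere. No group comparison was made, so no test between groups and no p value is given. Levels are given in FPKM, the number of fragments scaled to the length of the transcript and the depth of the library. This scaling is meant for comparison between genes, though short transcripts reach a high FPKM on few counts. Where 5 values of a gene are listed, they belong to CON replicates 1 to 5 in that order.

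The kidney filters blood in the glomerulus and then recovers water, salts, glucose, amino acids and small proteins along a tubule. The proximal tubule does most of this recovery and is rich in mitochondria, the thick ascending limb dilutes the urine, and the collecting duct adjusts water, sodium and acid under hormonal control. Each stretch expresses transporters of its own, so the transcripts of a piece of kidney report which stretches it holds. Because whole tissue was sequenced, fewer cells of a type and less RNA per cell cannot be told apart. In the same way, differences between animals, between the pieces of kidney taken and between library preparations cannot be told apart, since each animal gave 1 library.

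The label kidney was checked with 5 marker genes. UMOD, which encodes the uromodulin protein of the thick ascending limb (chromosome 24, 18469103 to 18485147, minus strand), measured 1095, 1073, 327, 577 and 1063 FPKM. It was alike in replicates 1, 2 and 5 and lowest in replicate 3. LRP2, the megalin receptor with which the proximal tubule takes up filtered protein (chromosome 2, 140096304 to 140279121, plus strand), measured 54.1, 54.98, 52.4, 68.1 and 134 FPKM, and replicate 5 lay above the other libraries, which were close to each other. SLC34A1, the sodium phosphate cotransporter of the proximal tubule (chromosome 5, 36589815 to 36603206, plus strand), measured 258, 155, 96.4, 204 and 346 FPKM, again highest in replicate 5 and lowest in replicate 3. AQP2, the vasopressin-regulated water channel of the collecting duct (chromosome 3, 136344087 to 136352276, minus strand), measured 352, 399, 582, 313 and 205 FPKM. The order was the other way round here, with the highest level in replicate 3 and the lowest in replicate 5. GPX3, a secreted glutathione peroxidase made by the proximal tubule (chromosome 5, 60066363 to 60074517, plus strand), measured 9288, 7564, 7668, 13887 and 9140.4 FPKM, highest in replicate 4. All 5 markers exceeded 50 FPKM in every CON library. Coordinates are those of the deposited table, whose gene positions match the sheep assembly ARS-UI_Ramb_v3.0.

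The CON libraries held 50255295 to 68747047 counts (median 62643688). Of 25592 genes, 11541 reached 1 FPKM in all 5 libraries, and 1706 had a count of 0 in all of them. Protein-coding genes made up 96.2% of the genes that reached 1 FPKM everywhere. Over all genes of the type, protein-coding genes carried 96.9% of the summed FPKM. The 4722 long non-coding RNAs, of which 314 reached 1 FPKM everywhere, carried 1.29%. Replicate 5 stood apart most. Among the 7488 genes with a mean of at least 5 FPKM, the median absolute log2 difference between a pair of libraries was 0.21 to 0.29 for the pairs with replicate 5 and 0.15 to 0.21 for the pairs without it. On the scale of FPKM + 1, replicate 5 was the highest library by at least 2-fold over the next in 45 of these genes. It was the lowest by at least 2-fold in 37. By the same margin, the other libraries were highest in 5 to 14 and lowest in 8 to 21 genes. Over the 7488 genes, replicates 1 to 5 were the highest library in 17.3%, 28.4%, 13.9%, 12.3% and 28.1% and the lowest in 21.6%, 9.31%, 20.4%, 16.8% and 31.9%, which is the background for each later count of genes highest or lowest in a library. Leaving replicate 5 out lowered the median SD of log2(FPKM + 1) from 0.53 to 0.34 for proximal tubule genes, from 0.43 to 0.35 for principal cell genes, from 0.68 to 0.47 for T and NK cell genes, from 0.75 to 0.58 for macrophage genes and from 0.70 to 0.44 for renin-angiotensin genes. It lowered this median in 29 of 35 gene lists and raised it in 6, among them the late proximal tubule (0.55 to 0.58), the thick ascending limb (0.38 to 0.40) and the distal convoluted and connecting tubule (0.35 to 0.37). The median over all 7488 genes fell as well, as given with the spread below, so a fall in most lists is the background.

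The most abundant transcripts came from the mitochondrial genome. The 50 genes of highest mean FPKM carried 43.3% ± 2.95 (SD, n = 5) of the summed FPKM, between 40.6% and 47.1% by library. Genes of the mitochondrial genome took 30.4% to 38.0% of the summed FPKM and 12.7% to 17.9% of the counts, with the highest shares in replicates 1 and 3. COX1, the catalytic subunit of cytochrome c oxidase (KEF53_p11), was the most abundant gene at 28617 ± 4877 FPKM (SD, n = 5). COX3 (KEF53_p07), ATP6 (KEF53_p08) and ND4 (KEF53_p04) followed with means of 25892, 23332 and 12867 FPKM. CYTB, a subunit of complex III (KEF53_p01), measured 16618, 7535, 16623, 9385 and 8284 FPKM, which is a 2.21-fold range with replicates 1 and 3 high and replicates 2, 4 and 5 low. COX2 (KEF53_p10) had the same 2 libraries on top, at 5636 and 5891 FPKM against 2703 to 3119 FPKM in the rest. Transcripts of mitochondrial genes did not share this order throughout, since ATP8 (KEF53_p09) was highest in replicate 5 at 15124 FPKM and lowest in replicate 3 at 9173 FPKM. Ranks by FPKM depend on length. The mean of the short ATP8 was 12320 FPKM with 0.269% of the counts, and that of COX1 was 28617 FPKM with 4.81%.

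GPX3 was the most abundant transcript of a nuclear gene, at 9509.7 ± 2575 FPKM (SD, n = 5) and 1.62% of all counts, with a 1.84-fold range between libraries. Ferritin, the iron storage complex, followed with its heavy chain FTH1, which measured 4773, 4039, 6372, 4063 and 3729.6 FPKM, and its light chain FTL with a mean of 2395 FPKM. FTH1 was highest in replicate 3 and the other libraries lay close together. LOC101102683, a gene with no assigned product on chromosome 21, 45888136 to 45890757, plus strand, measured 2607, 3572, 2457, 2261 and 2877 FPKM and was highest in replicate 2. Other nuclear genes among the 25 most abundant were EEF1A1, the elongation factor that brings aminoacyl tRNA to the ribosome (1383 FPKM), the ribosomal proteins RPLP1, RPSA and RPLP0 (1162, 1037 and 1004 FPKM), the membrane protein ITM2B (1077 FPKM), and FXYD2, the gamma subunit of the sodium pump (1039 FPKM). Without the genes of the mitochondrial genome, the top 50 carried 18.9% of the summed FPKM.

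**Figure D1:**
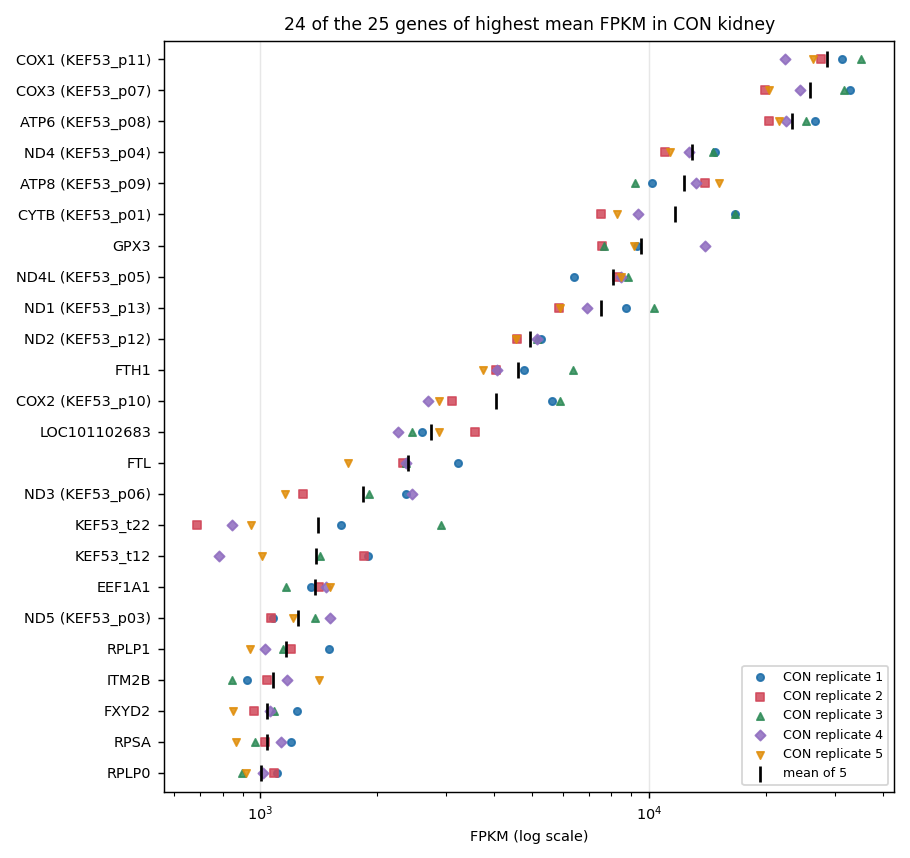
FPKM on a log axis of 24 of the 25 genes of highest mean level in CON kidney, with a coloured point for each of the 5 CON libraries and a black bar at their mean. Genes of the mitochondrial genome hold most of the upper rows, GPX3 is the highest nuclear gene, and replicates 1 and 3 lie together above the rest for CYTB and COX2.

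Among the nephron segments, the proximal tubule had the highest levels. Of its 22 listed genes, 20 were matched by symbol and all 20 reached 1 FPKM in every library, with a median gene mean of 90.96 FPKM. MIOX, the kidney oxygenase that begins inositol breakdown, measured 973, 554, 753, 1509 and 1129.6 FPKM. It was highest in replicate 4 and lowest in replicate 2. SLC5A12, a monocarboxylate carrier, SLC13A3, a dicarboxylate carrier, and SLC5A2, the glucose carrier SGLT2, had means of 400.3, 376 and 365 FPKM. SLC5A2 varied little, with an SD of 0.14 on the log2(FPKM + 1) scale, the scale of every SD quoted for a gene from here on. SLC22A8, the organic anion transporter OAT3, measured 282, 215, 347, 559.7 and 418 FPKM and was highest in replicate 4. The widest spread of the list belonged to AQP1, the constitutive water channel, which measured 124, 89.1, 95.2, 298 and 381 FPKM. Replicates 4 and 5 were far above the other libraries in AQP1. HNF4A, a transcription factor of proximal tubule identity, was the steadiest member at 54.7, 59.7, 56.2, 61.3 and 56.4 FPKM. Of the 19 members with a mean of at least 5 FPKM, 12 were highest in replicate 5 and 5 in replicate 4. The median deviation of these members from their own means was 0.55 log2 units in replicate 5 and 0.16 in replicate 4, against -0.13, -0.32 and -0.26 in replicates 1, 2 and 3.

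In the late proximal tubule list, SLC7A7, the light chain of a cationic amino acid exporter, was the most abundant member with a mean of 466 FPKM, and SLC22A7, the organic anion transporter OAT2, measured 15.8, 10.5, 14.1, 38.6 and 32.8 FPKM. SLC22A7 was high in replicates 4 and 5. The 5 members with a mean of at least 5 FPKM deviated by a median of 0.34 and 0.70 log2 units in replicates 4 and 5, and by -0.47 and -0.46 in replicates 2 and 3. In the thin limb and inner medulla list, CRYAB, a small heat shock protein of the medulla, measured 147, 161, 103, 68.2 and 257 FPKM, with replicate 5 highest and replicate 4 lowest. The osmolyte carriers SLC6A6 and SLC5A3 had means of 25.6 and 2.29 FPKM. SLC14A2, the urea transporter of the inner medullary collecting duct, was near 0, at 0.0262 to 0.213 FPKM with at most 68 counts in a library.

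In the thick ascending limb, SLC12A1, the sodium potassium chloride cotransporter that loop diuretics block, measured 87.9, 112, 55.03, 63.3 and 158 FPKM. Replicates 3 and 4 were the lowest libraries for SLC12A1, as they were for UMOD. CLDN10 and KCNJ1, a paracellular pore protein and the apical potassium channel, had means of 84.5 and 60.9 FPKM. The 6 members with a mean of at least 5 FPKM deviated by a median of -0.41 and -0.32 log2 units in replicates 3 and 4, and by 0.30 and 0.35 in replicates 2 and 5. The list was split in replicate 3, where 4 of the 6 were lowest and 2 were highest. NOS1, a marker of the macula densa, was at 0.0579 to 0.283 FPKM. For the distal convoluted and connecting tubule, KLK1, tissue kallikrein, was the most abundant listed gene at 371, 376, 306, 402 and 228 FPKM, lowest in replicate 5. CALB1, the calcium buffer calbindin, measured 107, 183, 217, 101 and 113 FPKM, and SLC12A3, the cotransporter that thiazides block, measured 47.3, 100.2, 100.5, 59.9 and 61.4 FPKM. Replicates 2 and 3 were the highest libraries for CALB1 and SLC12A3.

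Principal cell genes of the collecting duct were lowest in replicate 5 in 7 of 10 members with a mean of at least 5 FPKM and highest in replicate 3 in 6. HSD11B2, the enzyme that keeps cortisol from the mineralocorticoid receptor, measured 228, 269, 318, 267 and 139 FPKM. The epithelial sodium channel subunits SCNN1A, SCNN1B and SCNN1G had means of 33.7, 37.5 and 43.6 FPKM, all lowest in replicate 5. FXYD4, a regulator of the sodium pump in the collecting duct, had the widest spread of the list, at 55.2, 30.7, 20.1, 2.52 and 14.8 FPKM, with replicate 4 lowest. KCNE1, a potassium channel subunit on the same list, measured 5.92, 10.4, 8.68, 32.8 and 3.95 FPKM and was highest in replicate 4. Intercalated cells, which secrete acid or base, were represented by CA2, carbonic anhydrase 2, at 557, 555, 529.9, 727 and 593 FPKM. CA2 is also a proximal tubule enzyme, and it was highest in replicate 4. ATP6V1B1, a proton pump subunit, had a mean of 191 FPKM, and RHCG, an ammonia transporter, measured 42.3, 57.4, 53.6, 24.4 and 30.2 FPKM. RHCG was lowest in replicate 4. The median deviation of the 10 intercalated cell genes with a mean of at least 5 FPKM was -0.37 log2 units in replicate 5 and 0.34 in replicate 3.

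**Figure D2:**
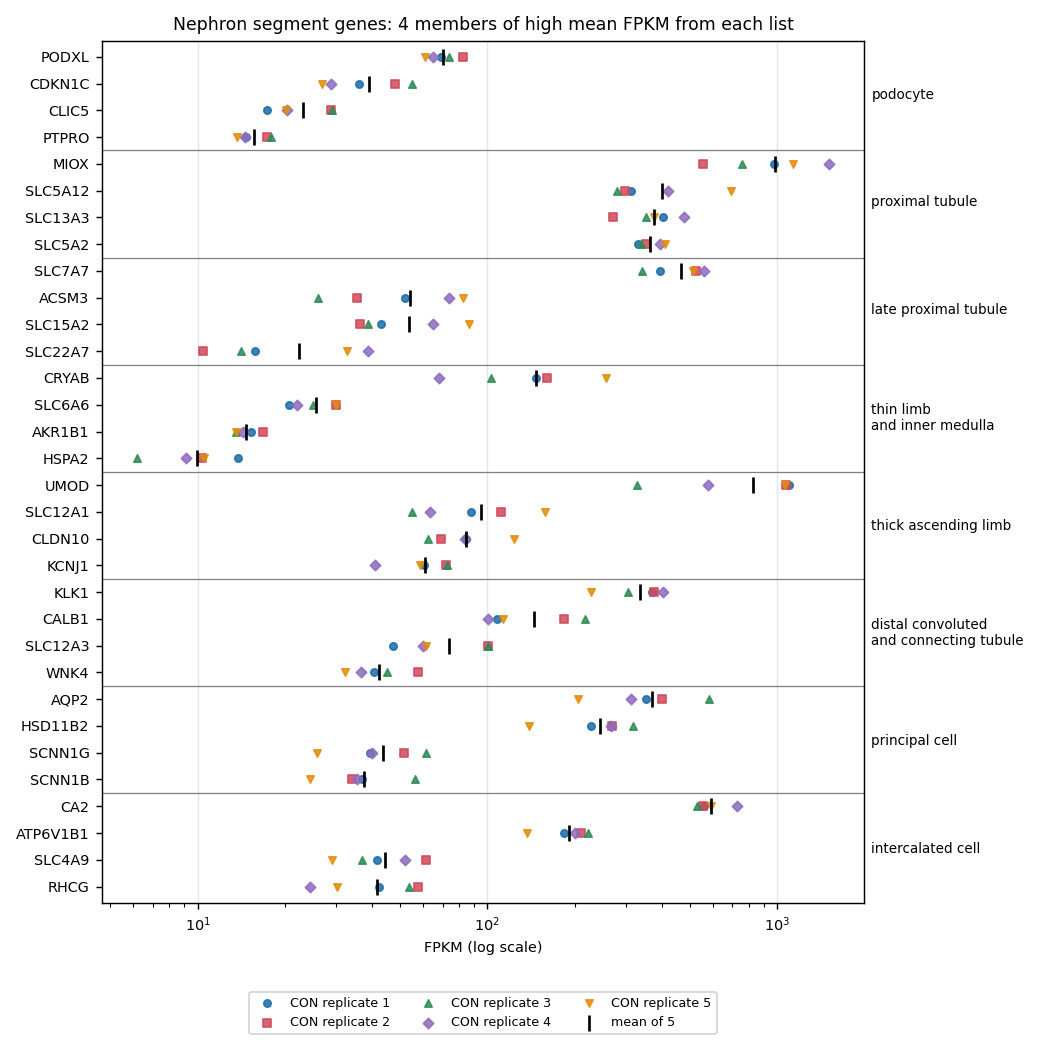
FPKM on a log axis of 4 genes of high mean level from each nephron segment list, ordered from the glomerulus to the collecting duct, with a point for each of the 5 CON libraries and a black bar at their mean. Replicate 5 is the highest point for SLC5A12, SLC12A1 and CRYAB and the lowest for AQP2, HSD11B2 and SCNN1G.

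Genes of the glomerulus, vessels and interstitium were measured in every library. Among podocyte genes, PODXL, which coats the foot processes, measured 69.4, 82.1, 73.6, 65.1 and 61.1 FPKM, and CDKN1C, a cell cycle inhibitor, measured 36.1, 47.8, 54.96, 28.8 and 26.8 FPKM. The 8 podocyte genes with a mean of at least 5 FPKM were lowest in replicate 5 in 6 cases and highest in replicates 2 or 3 in all 8. PLVAP, a protein of fenestrated endothelium, measured 158, 201, 197, 162 and 139.7 FPKM, and 7 of 8 endothelial genes with a mean of at least 5 FPKM were lowest in replicate 5, as were 31.9% of all genes. ACTA2, smooth muscle actin, measured 300.2, 188, 237, 144 and 144 FPKM. Smooth muscle genes were highest in replicate 1 in 4 of 5 members, with a median deviation of 0.63 log2 units there. LUM, a collagen-binding proteoglycan of fibroblasts, measured 59.97, 63.9, 17.4, 71.98 and 41.8 FPKM and was lowest in replicate 3. Over the 6 fibroblast genes, the median deviation was 0.39 and 0.47 in replicates 1 and 2 and -0.49 in replicate 5.

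Genes of immune cells were low in replicate 5, and those of T cells and macrophages also in replicate 4. JCHAIN, the joining chain of polymeric immunoglobulin from plasma cells, measured 28.1, 27.2, 24.7, 17.998 and 6.27 FPKM. CD3E, a subunit of the T cell receptor complex, measured 10.5, 12.3, 8.56, 7.94 and 3.72 FPKM. C1QA, a complement protein made by macrophages, measured 32.5, 30.05, 27.3, 12.8 and 9.85 FPKM. In all 3 genes replicate 5 was the lowest library and replicate 4 the next lowest. The summed FPKM of the T and NK cell list ran from 13.8 to 45.2, of the macrophage list from 50.5 to 138, and of the B and plasma cell list from 8.44 to 40.3, each lowest in replicate 5. Of the 191 immunoglobulin gene segments in the table, 13 had a mean of at least 5 FPKM, and their median deviation was -1.86 log2 units in replicate 5 against 0.16 to 0.70 in the others. Their median SD was 1.31 and became 0.57 without replicate 5. LOC101108781, described as a constant region of an immunoglobulin gamma 1 heavy chain (chromosome 18, 67628501 to 67640157, minus strand), measured 217, 218, 189, 134 and 14.4 FPKM. LOC132658103, described as a V-set domain protein, measured 34.9, 28.000, 14.3, 17.4 and 0 FPKM and is listed at 0 in replicate 5. Reads of immunoglobulin segments can map to more than 1 segment, so levels of single segments are uncertain. HBB, beta globin of red cells, measured 2.94, 4.94, 6.30, 24.2 and 2.55 FPKM and was highest in replicate 4, while the summed FPKM of the neutrophil list was 0.952 to 3.72.

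Genes of neighbouring organs were near 0. Summed FPKM was 4.04 to 5.68 over 9 adrenal genes, 4.93 to 10.03 over 6 adipocyte genes, 0.972 to 2.77 over 6 skeletal muscle genes and 0.582 to 3.07 over 5 urothelial genes. CYP11A1, the first enzyme of steroid synthesis, and the myosin heavy chains MYH1 and MYH2 had a count of 0 in all 5 CON libraries, which allows a share of up to 9.85e-07% of the counts, counting error only. The hepatocyte list was not empty. SERPINA1, alpha-1 antitrypsin, measured 80.98, 85.5, 92.3, 146 and 237 FPKM, highest in replicate 5, and TF, transferrin, had a mean of 49.8 FPKM. ALB, albumin, which was chosen after its values were seen, measured 3.48, 4.48, 1.26, 0.852 and 0.707 FPKM. APOA2, apolipoprotein A-II, measured 3.82, 2.45, 0.174, 9.88 and 32.2 FPKM, with replicate 5 highest and replicate 3 lowest. The share of other tissues in these differences was not tested.

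Metabolic genes of the kidney were abundant. In gluconeogenesis, PCK1, the rate-limiting carboxykinase of the pathway, measured 925, 965, 645, 1578 and 906 FPKM and was highest in replicate 4. G6PC1, which releases glucose, had a mean of 230.5 FPKM, and PC, pyruvate carboxylase, had the widest spread of the list, at 29.3, 25.7, 17.01, 54.9 and 63.5 FPKM. PC was high in replicates 4 and 5, and the median deviation of the 7 genes was 0.45 and 0.22 log2 units there. Fatty acid oxidation had 12 of 13 genes at 1 FPKM or more in every library, led by EHHADH of the peroxisome with a mean of 277 FPKM, and 11 of the 12 with a mean of at least 5 FPKM were highest in replicates 4 or 5. GLUL, which makes glutamine, had a mean of 138 FPKM. GATM and GAMT, which make creatine, had means of 150.0 and 149.7 FPKM.

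Genes that protect against oxidants were expressed in every library. Of 15 listed selenium genes, all reached 1 FPKM in the 5 libraries, and their summed FPKM of 8931 to 15249 came mostly from GPX3. GPX4 and SELENOP, a lipid peroxide reductase and the selenium carrier, had means of 432 and 260.0 FPKM. DIO1, the deiodinase that activates thyroid hormone, had the widest spread of the list at 20.5, 11.9, 12.97, 40.97 and 17.7 FPKM, highest in replicate 4. SOD1, cytosolic superoxide dismutase, measured 272, 239, 246, 333 and 498 FPKM, and CAT, catalase, measured 123, 106, 123, 182 and 231 FPKM. SOD1 and CAT were highest in replicate 5 and next in replicate 4, as was the order for many proximal tubule genes. GCLC, the catalytic subunit of glutathione synthesis, measured 25.9, 43.7, 46.02, 86.8 and 59.2 FPKM and was highest in replicate 4. Of the 15 antioxidant and conjugation genes with a mean of at least 5 FPKM, 8 were highest in replicate 5 and 4 in replicate 4. HMOX1 and NQO1, targets of NRF2, had means of 75.7 and 7.28 FPKM.

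Stress genes of the untreated kidney differed by program. The endoplasmic reticulum chaperones CALR, HSPA5 and HSP90B1 had means of 187, 134 and 118 FPKM, whereas DDIT3 and TRIB3, which mark a prolonged unfolded protein response, had 3.62 and 0.923 FPKM. The median SD of this list was 0.23, and 0.17 without replicate 5. Among heat shock genes, HSPA8, HSPB1 and HSPA1A had means of 509, 387 and 209 FPKM, and 6 of 9 members with a mean of at least 5 FPKM were highest in replicate 5, where 28.1% of all genes were. Of the genes associated with tubular injury, SPP1, osteopontin, was abundant at 344, 187, 333, 382 and 337 FPKM and lowest in replicate 2, while LCN2 was at 0.133 to 0.18 FPKM. SPP1 differed from its list in this, since 5 of the 7 members with a mean of at least 5 FPKM were highest in replicate 2, with a median deviation of 0.39 log2 units there. For the hormones and mineral balance of the kidney, ANPEP, an aminopeptidase, measured 87.1, 97.8, 89.5, 156 and 218 FPKM, and 5 of 6 genes of the renin-angiotensin list with a mean of at least 5 FPKM were highest in replicate 5. KL, klotho, the coreceptor for the phosphate hormone FGF23, measured 29.2, 41.8, 33.7, 40.3 and 62.6 FPKM, and S100G, calbindin-D9k, measured 234, 233, 267, 277 and 123 FPKM. KL was highest and S100G lowest in replicate 5. EPO, erythropoietin, and HAMP, hepcidin, had a count of 0 in every CON library. Of the clock genes, NR1D1 measured 23.7, 13.3, 11.1, 12.9 and 5.94 FPKM and had the widest spread, with an SD of 0.65. The complement genes CFD, which encodes factor D, and C3 measured 49.6, 24.9, 46.5, 18.3 and 11.5 FPKM and 15.4, 43.3, 22.8, 11.04 and 38.3 FPKM, the last chosen after its values were seen.

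The spread between animals was described over the 7488 genes with a mean of at least 5 FPKM. The SD of log2(FPKM + 1) over the 5 libraries had a median of 0.20 and ran from 0.015 to 2.77. Counting error accounted for a small part of it, with a median expected SD of 0.024, and 7319 of the 7488 genes (97.7%) had an SD above 2 times their counting SD. An SD of at least 1 was seen in 111 genes (1.48%), and an SD under 0.1 in 964 genes (12.9%). Without replicate 5, the median SD was 0.16, with 83 genes at 1 or more and 1581 under 0.1. Genes known only by a LOC symbol were 9.27% of the 7488 genes, 57.7% of the 111 most variable and 4.15% of the 964 steadiest.

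The smallest SD was that of UBE2L3, a ubiquitin-conjugating enzyme, at 51.9, 52.6, 53.3, 52.97 and 53.1 FPKM. TUSC2, a small mitochondrial protein, followed at 23.8, 24.3, 24.1, 23.9 and 23.6 FPKM. In both, no library stood apart. Behind them came GEMIN7 of the SMN complex, RBFA of the mitochondrial ribosome, ZNF592, ANKS3, IST1, PPP2CB, a catalytic subunit of phosphatase 2A, and TIMM44 of the mitochondrial import motor, at means of 8.35 to 37.3 FPKM apart from GEMIN7 at 5.02. Of the 20 genes of smallest SD, 11 had an SD below their counting SD, so their order is within counting error. Of the 20, 1 was also among the 20 of smallest edgeR coefficient of variation. Several genes tied at the lowest value of that coefficient, 0.0099, so this overlap does not tell how far the measures match. The 16 reference genes examined had a median SD of 0.15, and 15 of the 16 had an SD between 0.1 and 1. With TMM scaling of the counts the median was 0.22, above the 0.21 of all genes on that scale, whereas 0.15 lay below the 0.20 of all genes. GAPDH measured 239, 208, 209, 271 and 239 FPKM, with an SD of 0.16. ACTB, beta-actin, which served as the reference gene for RT-qPCR in the study, measured 493, 388, 460.5, 285 and 317 FPKM. Its SD of 0.34 was above the median of all genes, with replicates 1 and 3 high and replicates 4 and 5 low. B2M, a reference gene that is also part of class I histocompatibility molecules, measured 263, 334, 247, 187 and 210.3 FPKM, and TFRC, the transferrin receptor, had the largest SD of the 16, at 0.35.

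**Figure D3:**
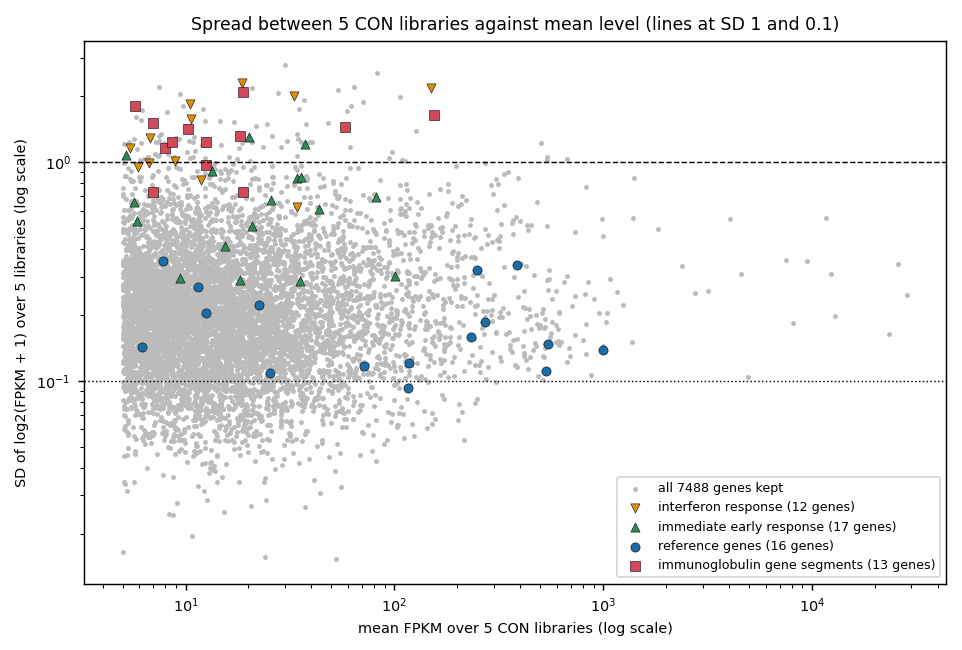
SD of log2(FPKM + 1) over the 5 CON libraries against mean FPKM, both on log axes, for the 7488 genes with a mean of at least 5 FPKM, with coloured marks for the interferon, immediate early, reference and immunoglobulin genes. Of the marked genes, 8 of 12 interferon and 10 of 13 immunoglobulin genes lie at or above the dashed line at SD 1 (5 and 2 without replicate 5), and 15 of the 16 reference genes lie between the lines at 0.1 and 1.

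Genes induced by interferon differed widely between libraries. The 12 members with a mean of at least 5 FPKM had a median SD of 1.22, and 8 of the 12 had an SD of at least 1, where 1.48% of all genes did. ISG15, a ubiquitin-like protein (chromosome 12, 50782014 to 50783069, minus strand), measured 1.89, 13.3, 2.28, 0.406 and 75.7 FPKM. IFI6, an interferon-induced membrane protein, measured 17.8, 141, 30.2, 14.6 and 549 FPKM, and MX1, an antiviral GTPase, measured 4.24, 34.3, 6.33, 4.08 and 117 FPKM. In all 3 genes replicate 5 was the highest library, replicate 2 the next, and replicates 1, 3 and 4 were low. LOC105602911, described as 2'-5'-oligoadenylate synthase 1, had the same order at 10.6, 60.9, 15.4, 12.2 and 212 FPKM. The median deviation of the 12 genes was 1.83 log2 units in replicate 5, 0.88 in replicate 2, and -1.07 to -0.72 in the rest. CXCL9, a chemokine that attracts T cells, differed from this order, at 5.37, 19.1, 6.31, 1.36 and 1.42 FPKM, with replicate 2 highest and replicates 4 and 5 lowest. Genes of antigen presentation followed replicate 2 as well, which was the highest library for all 7 members with a mean of at least 5 FPKM. Without replicate 5, the median SD of the interferon list was 0.89, with 5 of the 12 genes at 1 or more.

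Immediate early genes, which are switched on within minutes of a stimulus, had another order. EGR1, a zinc finger transcription factor, measured 22.1, 60.2, 80.2, 13.3 and 11.8 FPKM. FOS, a component of AP-1, measured 8.93, 23.4, 56.1, 6.05 and 6.36 FPKM. NR4A1, an orphan nuclear receptor, measured 3.23, 5.14, 14.3, 1.36 and 1.75 FPKM, and DUSP1, a phosphatase of MAP kinases, measured 25.6, 37.2, 79.2, 20.6 and 16.9 FPKM. In all 4 genes replicate 3 was the highest library and replicate 2 the next. Of the 17 members with a mean of at least 5 FPKM, 14 were highest in replicate 3, 10 were lowest in replicate 5 and 6 in replicate 4. The median SD of the list was 0.66 (0.54 without replicate 5), and 3 of the 17 genes had an SD of at least 1.

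**Figure D4:**
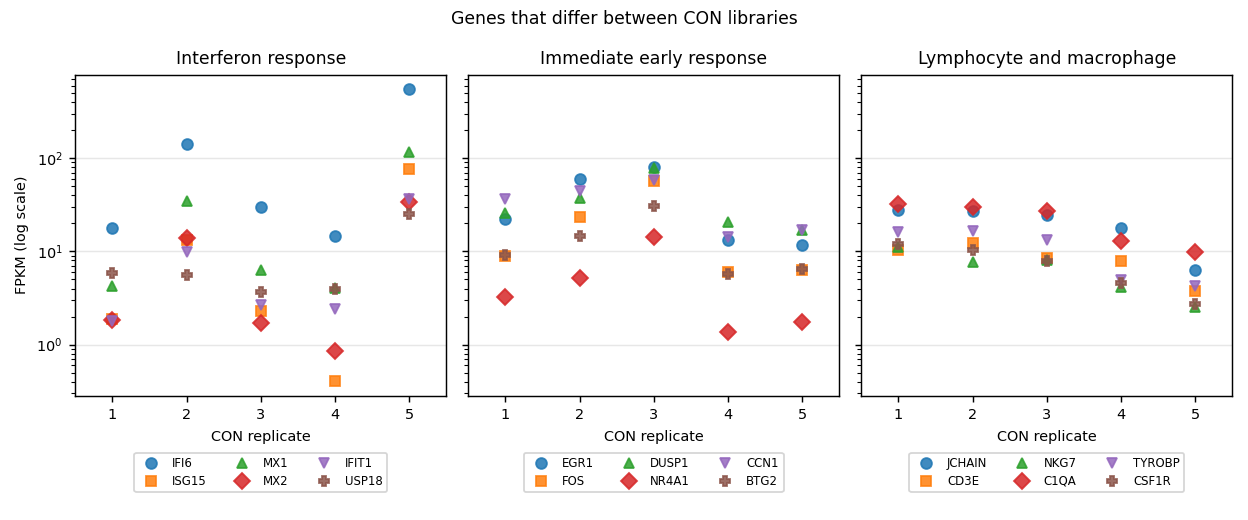
FPKM on a log axis in CON replicates 1 to 5 for 6 interferon response, 6 immediate early and 6 lymphocyte or macrophage genes, each mark being a gene in a library. Interferon genes are high in replicates 5 and 2, immediate early genes in replicate 3, and immune cell genes are lowest in replicate 5.

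Several of the most variable genes were copies of a gene found elsewhere in the genome, and here the copies and the parent gene were read together. These families were chosen after their values were seen. LOC101121371, described as ribosomal protein L37a (chromosome 15, 39926338 to 39926697, minus strand), measured 4.41, 4.16, 87.7, 220.3 and 98.2 FPKM, and LOC101123533, described as L37a-like (chromosome 2, 238543737 to 238544071, plus strand), measured 5.76, 5.29, 29.6, 164 and 117 FPKM. Replicates 1 and 2 were low in both. RPL37A itself was highest there and lowest in replicate 4, with 40.2, 34.5, 25.6, 13.9 and 17.1 FPKM. As a share of all counts, in CPM, RPL37A with its 3 described copies summed to 261, 222, 213, 266 and 207, an SD of 0.17 on the log2 scale against 0.65 for RPL37A and 1.27 to 2.36 for the copies. The sum thus varied less than any of the 4 genes. HINT1, a nucleotide hydrolase, measured 22.3, 2.29, 3.17, 3.65 and 15.3 FPKM, while the copy LOC114115721 measured 2.73, 43.04, 40.8, 49.6 and 1.98 FPKM. The libraries with high HINT1 had low LOC114115721, and the summed CPM still ranged from 38.9 to 138. LOC101116863, described as ribosomal protein S6, measured 1.53, 56.7, 48.8, 56.7 and 20.3 FPKM, whereas RPS6 with this copy summed to 542, 474, 452, 492 and 420.0 CPM, an SD of 0.14 against 0.17 for RPS6 alone, which held most of the sum. In RPL27, by contrast, the sum with its described copy LOC121820186 had an SD of 0.21, against 0.18 for RPL27 alone. No source used here states how reads that match several copies were assigned, so the levels of the single copies are uncertain. RPL36, chosen in the same way, measured 239, 57.3, 54.7, 27.9 and 253 FPKM, high in replicates 1 and 5.

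Copies of mitochondrial genes in the nuclear genome varied too. LOC121818276 on the X chromosome, described as COX1-like, measured 157, 719.9, 156, 823 and 666 FPKM, and LOC121816987 on chromosome 1, described as ND5, measured 9.97, 59.9, 10.5, 101 and 60.2 FPKM. Both were low in replicates 1 and 3, the libraries with the largest share of reads on the mitochondrial genome. COX1 and LOC121818276 together summed to 54552, 53823, 60932, 46283 and 50285 CPM, an SD of 0.15 on the log2 scale against 0.25 for COX1 alone. For ND5 (KEF53_p03) the sum with LOC121816987 had an SD of 0.24, against 0.23 for ND5 alone. Levels of COX1, of ND5 and of these copies are uncertain in the same way.

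Further variable genes were each set apart by particular libraries. LOC121817841, which has no description (chromosome 24, 8858237 to 8877878, plus strand), had the largest SD of all, 2.77, at 92.1, 22.8, 0, 33.5 and 1.20 FPKM. MYL4, an atrial and embryonic myosin light chain, measured 2.97, 34.05, 0.154, 0 and 0.0268 FPKM, with replicate 2 far above the rest. SLPI, a secreted protease inhibitor, measured 26.9, 1.05, 1.18, 1.26 and 0.429 FPKM and was high only in replicate 1, as was LOC114114084, described as a cytochrome P450 2D14-like protein, at 53.3, 3.64, 3.50, 3.82 and 9.12 FPKM. SERPINA14, described as uterine milk protein, measured 72.9, 46.7, 4.14, 53.1 and 175 FPKM and was lowest in replicate 3. In replicate 2, SLC46A1, the proton-coupled folate transporter, and SLC22A11, an organic anion transporter, were low, at 20.5, 5.37, 33.1, 20.7 and 23.1 FPKM and 7.83, 0.503, 8.14, 3.83 and 9.06 FPKM. Replicate 4 was low in TPBG, trophoblast glycoprotein, which measured 5.66, 5.37, 7.15, 0.136 and 6.997 FPKM. LOC105605640 on the X chromosome, described as a syncytin-1 precursor, measured 2.38, 2.41, 1.08, 1.02 and 33.8 FPKM and was high in replicate 5. Of the dihydrodiol dehydrogenase 3-like genes on chromosome 13, LOC106990122 measured 21.9, 14.2, 18.3, 119 and 361 FPKM, LOC101107119 measured 2.03, 1.71, 0.664, 1.56 and 24.6 FPKM and LOC101110434 measured 4.98, 7.13, 0.469, 8.18 and 16.3 FPKM. Replicate 5 was the highest library for all 3. The class II histocompatibility gene LOC101120392, described as DQB, measured 37.7, 56.5, 0.514, 4.72 and 4.31 FPKM. Its neighbour LOC101108696, described only as a cell surface protein, measured 101, 138, 3.45, 15.4 and 9.74 FPKM. Replicates 1 and 2 were high in both genes, which lie on chromosome 20. Class II genes are close copies of each other, so the level of LOC101120392 is uncertain.

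Set against each other by list, the libraries had profiles of their own. Replicate 5 was high in genes of the proximal tubule, the interferon response and the renin-angiotensin system and low in genes of the collecting duct and of immune cells. Replicate 4 shared the high proximal tubule and gluconeogenesis genes, with interferon response genes at -1.07 and macrophage genes at -0.63 log2 units. Replicate 3 was high in immediate early (0.74), macrophage (0.41) and principal cell genes (0.35). It was low in genes of the interferon response (-0.76), the late proximal tubule (-0.46) and gluconeogenesis (-0.44). Its median was also low in the thick ascending limb (-0.41), where 2 of 6 genes were nevertheless highest in replicate 3. Replicate 2 was high in genes of the interferon response (0.88), antigen presentation (0.61), T and NK cells (0.56) and macrophages (0.54). Replicate 1 was high in genes of macrophages (0.65), smooth muscle (0.63), T and NK cells (0.61) and cytosolic ribosomal proteins (0.23), with 67 of 78 ribosomal protein genes at their highest level there. Of the 35 lists with at least 3 genes at a mean of 5 FPKM, 33 had a median SD above the 0.20 of all genes. The 35 leave out gene groups that were added later. Of these, cytosolic ribosomal proteins (0.17), nuclear oxidative phosphorylation (0.15) and transcription factors (0.18) lay below 0.20. Proteins of the mitochondrial genome (0.25) and solute carriers (0.30) lay above it. The lists were drawn up with a knowledge of kidney genes and overlap in part, for example in PCK1 and RHCG.

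**Figure D5:**
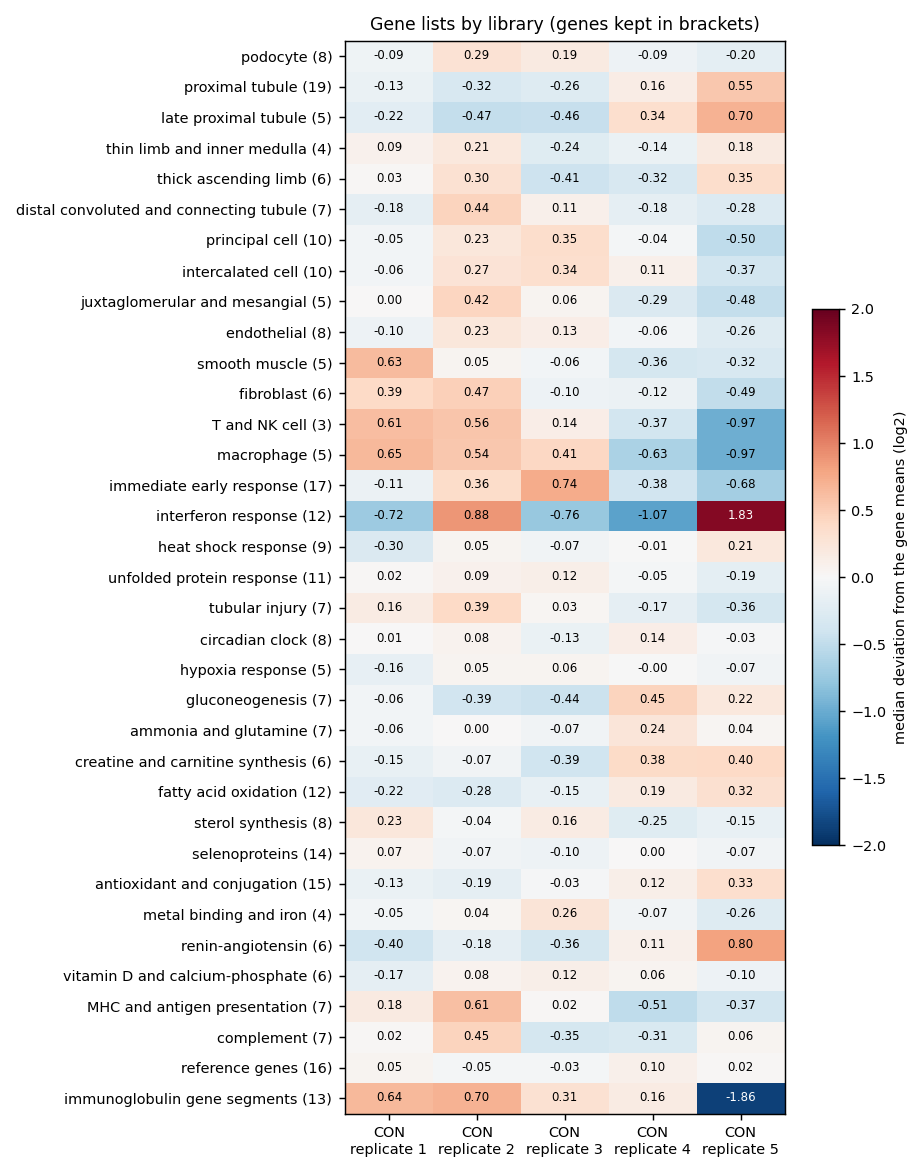
Median over each list's genes of log2(FPKM + 1) minus the gene's mean over the 5 CON libraries, for the 34 lists of cell types, pathways and reference genes with at least 3 genes kept and for immunoglobulin gene segments, with red above and blue below the mean and the number of genes in brackets. The strongest colours are the interferon response in replicate 5 (1.83) and the immunoglobulin segments in replicate 5 (-1.86), and the row of reference genes is near 0.

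The genes that differed most between untreated animals also differed among the treated ones. Of the 50 genes with the largest SD in CON, 37 had an SD of at least 1 among the 5 AFB1_CUR libraries, where 1.67% of the 7488 genes did. Among AFB1 replicates 2 to 5 it was 35 of 50, where 1.70% of the genes did, and 27 of the 50 passed in both groups. AFB1 replicate 1 was left out because the liver gene ALB stood at 25681 FPKM and UMOD at 0.108 FPKM in the library with that label. With it the count was 42 of 50, where 13.8% of the genes passed. ISG15 ranged from 0.146 to 24.2 FPKM in AFB1_CUR and from 1.39 to 77.2 FPKM in AFB1 replicates 2 to 5, next to 0.406 to 75.7 FPKM in CON. LOC101121371, a described copy of RPL37A whose single level is uncertain, ranged from 1.69 to 201 FPKM and from 2.30 to 139.9 FPKM in these groups. Immunoglobulin segments and class II genes, whose single levels are uncertain too, are also among the 50. How far the assignment of reads enters the counts of the 50 was not tested. FOS, by contrast, had an SD of 0.32 in AFB1 replicates 2 to 5 and 1.14 in AFB1_CUR, next to 1.305 in CON. The genes steady in CON varied less than genes in general there, but more than in CON. The 964 genes with an SD under 0.1 in CON had median SDs of 0.16 in AFB1_CUR and 0.15 in AFB1 replicates 2 to 5. These medians lay below the 0.22 and 0.23 of all genes and above the 0.1 by which the genes were chosen.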

How the data were processed

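Total RNA of kidney was enriched for mRNA with oligo(dT), made into stranded libraries and sequenced in pairs of 150-base reads by the authors, who removed adapters and low-quality reads. The submitters' notes name cutadapt 1.9, HISAT2 2.2.1, StringTie 2.1.6, DESeq2 and edgeR, without saying which made the counts. The deposited table holds raw counts and FPKM values of 25592 genes. The genome build is not named by any source used here, and 24848 of 24947 genes matched by symbol (99.6%) had the same start and end as in RefSeq's ARS-UI_Ramb_v3.0, whose names were used. Libraries were grouped by their titles. No groups were compared and no p value was computed. FPKM values of the 5 CON libraries were summarised with pandas 2.3.3 as levels, shares, and the SD of log2(FPKM + 1) over genes with a mean of at least 5 FPKM. Counting SD was computed from the counts as Poisson error. Scaling by TMM (edgeR 4.0.16) and by DESeq2 1.42.0 size factors (R 4.3.3), a pseudocount of 0.1, other filters and leaving out each library were alternatives. The ranking by SD was tested on simulated data, and Dixon's critical value was used to find libraries set apart from the others.

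Genes named were the 25 of highest mean FPKM, the 10 of highest count share, per list the 4 of highest mean with the highest and lowest SD, the 30 of highest and 20 of lowest SD, per library the 5 largest gaps to the next library in each direction, and all reference genes. The genes outside these rules are said to have been chosen after their values were seen, and copies and other members that complete a named group were added with them. The gene lists and this choice of samples were made with earlier results of these data known. Descriptions of LOC genes come from the deposited annotation and are best matches to other species. Where a listed gene was not matched by symbol it was not analysed here. Some genes that these rules name are not reported here.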

Additional observations from a re-analysis of the deposited data

Results flagged for a closer look

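Sets of 5 values in which the gap between 1 CON library and the next exceeded Dixon's 95% critical value of 0.71 of the range are listed here, 13 of 142 sets, on the log2(FPKM + 1) scale for genes. Chance gives about 1 in 20 sets that were not chosen by their values, which is no baseline here, since many of the 142 sets are genes named for a large spread or gap and the immunoglobulin list was added after the data were seen. SLPI, LOC105605640, LOC101107119, LOC101108781, LOC132658103, SLC46A1 and TPBG had been named for the size of this same gap, so their values are a description and no test. In replicate 5, LRP2 was high at 134 FPKM, S100G was low at 123 FPKM, LOC105605640 and LOC101107119 were high at 33.8 and 24.6 FPKM, and the immunoglobulin segments LOC101108781 and LOC132658103 were low at 14.4 and 0 FPKM. SPP1 and SLC46A1 were low in replicate 2, at 187 and 5.37 FPKM. SLPI was high in replicate 1 at 26.9 FPKM, and TPBG was low in replicate 4 at 0.136 FPKM. The number of genes in which a library was highest by at least 2-fold set replicate 5 apart, with 45 genes, as did the median deviation of the immunoglobulin gene segments, -1.86 log2 units. The median deviation of the genes with a symbol other than LOC set replicate 2 apart, at 0.067 log2 units.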

How the results depend on the processing

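The number of genes at 1 FPKM in every CON library, 11541, was 17390 when a count of at least 10 in every library was asked for instead. The share of the 50 most abundant genes was 43.3% of the summed FPKM, 24.4% of the counts, and 18.9% of the summed FPKM without genes of the mitochondrial genome. The 964 genes with an SD under 0.1 became 8391 with no filter on low values and 1526 with a mean of at least 1 FPKM, because genes near 0 have little room to vary after 1 is added, and the median SD became 0.14 with no filter. Leaving out each library gave 1078 to 1581 genes under 0.1 and median SDs of 0.16 to 0.20, with the extreme without replicate 5, for which the cause was not tested. The number of genes with an SD of at least 1 ranged from 83 without replicate 5 to 153 with lower filters. It was 149 with TMM scaling and 148 with DESeq2 size factors. Of the 50 genes of largest SD, 44 were also in the top 50 with TMM scaling, 45 with a pseudocount of 0.1, 38 by edgeR's coefficient of variation, and 32 without replicate 5. The 33 of 35 lists above the median SD of all genes were 32 to 34 under TMM scaling and with each library left out. With TMM scaling the median SD moved by more than its spread over the libraries left out in 11 of the 35 lists. Leaving out replicate 5, an alternative added after seeing the data for these counts, gave 2 immunoglobulin segments against 10 and 5 interferon genes against 8 at an SD of 1 or more. Subtracting the library medians, an alternative chosen after seeing the data, left 111 genes with an SD of at least 1. No paired analysis was possible because no groups were compared. With at least 50255295 counts in a library, depth limits only genes of few counts.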

Other observations

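Other gene groups, chosen after the data were seen, showed how evenly the untreated kidney expressed them. Of 931 genes assigned to a transcription factor family in the deposited annotation, 566 reached 1 FPKM in every CON library, and the 299 with a mean of at least 5 FPKM had a median SD of 0.18, near the 0.20 of all genes. Replicate 2 was the highest library for 124 of these 299 and for 2128 of all 7488 genes. Of 318 genes of the solute carrier families, 204 reached 1 FPKM in every library. The 144 with a mean of at least 5 FPKM had a median SD of 0.30, and 57 of them were highest in replicate 5, as were 2101 of all 7488 genes. The summed FPKM of all solute carriers was 7187 to 9602.

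The 58 nuclear genes of oxidative phosphorylation with a mean of at least 5 FPKM had a median SD of 0.15, and their highest library was replicate 1 in 28 and replicate 4 in 21, whereas the 13 protein genes of the mitochondrial genome had a median SD of 0.25. The 12 measured genes of sterol synthesis had a median mean of 7.62 FPKM, with SREBF2, the regulator of the pathway, at a mean of 23.5 FPKM. Of 12 genes of cell division, 4 reached 1 FPKM in every library, and MKI67, a marker of dividing cells, measured 1.34, 1.74, 2.52, 0.603 and 0.548 FPKM. Among genes induced by low oxygen, ADM, adrenomedullin, and VEGFA, a growth factor for endothelium, had means of 166 and 121 FPKM, while CA9 had 3.02 FPKM.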
